A study of Caenorhabditis elegans with 2 samples.

Results

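The genes described here encode proteins of the meiotic chromosome axis of Caenorhabditis elegans: the HORMA-domain proteins HIM-3, HTP-1, HTP-2 and HTP-3, and LAB-1, an axis-associated protein that has no HORMA domain. The 5 genes him-3, htp-1, htp-2, htp-3 and lab-1 were taken by name, out of 19973 protein-coding genes of the annotation, and each has 1 annotated 5′ end. For each gene, the peaks of XND-1 chromatin immunoprecipitation followed by sequencing (ChIP-seq) were read in a promoter window, which ran 500 bp upstream to 200 bp downstream of the 5′ end. A gene was called bound when the summit of a peak that passed the irreproducible discovery rate (IDR) procedure lay in its window.

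The worms were hermaphrodites of strain QP0661, a stable transgenic line that expresses XND-1 fused at its C terminus to GFP and FLAG. They were collected as young adults, 50 h after synchronization as starved L1 larvae. Chromatin of whole animals was sonicated and, per the samples' description, precipitated with an antibody against GFP, while their antibody label names xnd-1. The series has 1 group with 2 biological replicates, so the 5 genes were compared with other genes and between the replicates, and no condition was contrasted. No list from untagged worms was used here.

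During meiotic prophase each pair of sister chromatids is organised as loops on a protein axis built on cohesin. HTP-3 binds this axis first and recruits HIM-3, HTP-1 and HTP-2, and together they are needed for pairing, for regulated assembly of the synaptonemal complex and for directing double-strand breaks to repair from the homolog. HTP-1 and HTP-2 later stay on one arm of each chromosome pair, where LAB-1 acts with protein phosphatase PP1 to keep the Aurora B kinase AIR-2 away and so protects sister cohesion. XND-1, the precipitated protein, is a chromatin factor of the germline whose loss makes X chromosomes fail to cross over and segregate wrongly.

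Short DNA words found at XND-1 summits were present upstream of the HORMA genes, and the stretches that carry them on chromosome IV are shown here because the later comparison of summits with words rests on them. Of the 4 words of 6 bases, word 1 was GGCGCA, word 2 was GAGACC, word 3 was ACCGTA and word 4 was CCTTTA, and each was counted on both strands. A particular arrangement, GAGACC followed on the same strand by CCTTTA with 25 to 30 bp between their first bases, is called the word pair below. GGCGCA on the reverse strand, TGCGCC, shares bases with CCTTTA in him-3. The sequences are from the RefSeq WBcel235 genome, 5′ to 3′ in the direction of the named gene, and capitals mark the 4 words.
him-3, 258 bp up to its 5′ end, plus strand, chrIV:6977250-6977507: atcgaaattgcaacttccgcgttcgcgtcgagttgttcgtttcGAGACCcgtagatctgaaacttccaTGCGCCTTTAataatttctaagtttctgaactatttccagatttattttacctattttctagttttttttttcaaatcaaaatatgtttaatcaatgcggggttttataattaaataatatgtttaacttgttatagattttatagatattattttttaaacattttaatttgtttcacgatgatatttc
htp-1, 300 bp up to its 5′ end, minus strand, chrIV:5391558-5391857: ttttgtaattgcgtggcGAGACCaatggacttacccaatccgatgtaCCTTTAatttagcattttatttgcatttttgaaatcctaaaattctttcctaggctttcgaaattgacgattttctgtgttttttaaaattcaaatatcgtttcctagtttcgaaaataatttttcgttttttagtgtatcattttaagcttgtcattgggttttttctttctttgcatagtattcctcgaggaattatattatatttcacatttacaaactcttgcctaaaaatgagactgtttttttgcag
htp-2, 300 bp up to its 5′ end, plus strand, chrIV:6419222-6419521: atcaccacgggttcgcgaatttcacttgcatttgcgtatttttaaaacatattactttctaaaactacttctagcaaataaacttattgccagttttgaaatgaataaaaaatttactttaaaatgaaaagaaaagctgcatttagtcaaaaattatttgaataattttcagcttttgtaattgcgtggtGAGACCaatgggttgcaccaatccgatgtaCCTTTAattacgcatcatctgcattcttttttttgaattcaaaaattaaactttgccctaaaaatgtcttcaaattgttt
The spans that hold the word pair are the following.
him-3, 35 bp, chrIV:6977293-6977327: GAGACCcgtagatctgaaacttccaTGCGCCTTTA
htp-1, 36 bp, chrIV:5391805-5391840: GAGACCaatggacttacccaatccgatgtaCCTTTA
htp-2, 36 bp, chrIV:6419412-6419447: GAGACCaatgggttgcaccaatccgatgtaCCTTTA
The spans of htp-1 and htp-2 were identical at 31 of 36 bases. These genes are close paralogs, with 954 of 1056 coding bases identical (90.3%), so their upstream stretches are not independent examples.

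The list of peaks that passed IDR held 1841 peaks with scores of 65.6 to 2548 (median 128). The list called on both replicates pooled held 24467 peaks (12.9 to 2548, median 19.2), and it includes background regions meant as input for IDR. As rounded here, the highest pooled score outside the IDR list, 65.6, equalled the lowest score inside it. The IDR list thus holds the top of the pooled list by score. Being bound therefore does not mean that each replicate ranked the peak high. The lists of replicates 1 and 2 held 22772 (7.74 to 1250, median 11.3) and 22364 peaks (8.32 to 1306, median 12). The score is the peak's signalValue as deposited by the authors and has no named unit, so it was compared only within a list, by value or rank. Depth per replicate is unknown, since peak lists carry no reads.

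Of the 5 axis genes, 1 was bound in the IDR list (20%, exact Clopper-Pearson 95% interval 0.505% to 71.6%), against 1334 of 19973 protein-coding genes (6.68%). The bound gene was lab-1. All 4 HORMA genes lacked a summit of the IDR list in the window. In the pooled list each of the 5 had a summit in the window, against 5525 of all genes (27.7%). In the list of replicate 1 a summit was found for 4 of the 5, without htp-1, and for 5458 of all genes (27.3%). In the list of replicate 2 a summit was found for 4 of the 5, without htp-3, and for 5118 of all genes (25.6%). With 5 genes the interval in the IDR list is wide and includes the share of all genes. The genes were chosen by name, and htp-1 and htp-2 are close paralogs, so the interval is no test against all genes. Intervals cover the number of genes only. In whole worms, binding in fewer cells and weaker binding per cell cannot be told apart.

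HTP-3, the HORMA protein that the others need in order to load, is encoded on chromosome I at 4827072 to 4829791 on the plus strand (WBGene00002034). Its pooled promoter summit had a score of 20.7 and rank 10484 of 24467, 51 bp upstream of the 5′ end at I:4827021. The summit had a score of 12.7 and rank 9002 in the list of replicate 1, 34 bp upstream. No summit lay in its window in the list of replicate 2, where the nearest was 693 bp upstream, in coding sequence of tofu-4. The −log10 q was 0.294 at the pooled promoter summit and 0.404 at that of replicate 1. The highest values in these lists were 3.78 and 3.65. The highest other pooled summit near htp-3 lay 248 bp past its 3′ end, at I:4830039, with a score of 37.8 and rank 3668. It lay upstream of F57C9.4, which starts 344 bp past htp-3 on the same strand. The list of replicate 1 had a summit of 25.9 there. Replicate 2 had one of 12.9 at I:4830141, in coding sequence of F57C9.4.

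HIM-3 is needed for synapsis and for homolog-directed repair. Its gene lies on chromosome IV at 6977508 to 6978765 on the plus strand (WBGene00001862). The pooled list had 2 summits in the window, with a score of 23.5 (rank 8227) at 261 bp upstream and of 21.9 at 29 bp downstream of the 5′ end. The replicates differed in which of these places they marked. Replicate 1 had a summit of 19.9 (rank 3943) at 10 bp upstream, and replicate 2 had a summit of 9.15 (rank 18983) at 278 bp upstream. The −log10 q was 0.474 at the strongest pooled summit, 1.79 in replicate 1 and 0.0536 in replicate 2. The difference in place thus rests on a very weak summit in replicate 2. The upstream place, IV:6977247 in the pooled list, is annotated as coding sequence of pgl-1. A higher pooled summit of 41.4 (rank 3244) lay past the 3′ end of him-3, at IV:6978897 in an untranslated region of prkl-1, whose annotation overlaps that of him-3 by 24 bp. There the score was 9.72 in replicate 1 and 24 in replicate 2.

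HTP-1 couples pairing to synapsis and protects sister cohesion until anaphase of the first division, and HTP-2 is its near-identical partner with a partly overlapping role. The weakest promoter summit among the 5 genes was that of htp-1 (IV, 5390189 to 5391557, minus strand, WBGene00002032). It had a score of 13.4 and rank 23233 of 24467 in the pooled list, 291 bp upstream at IV:5391848, with a −log10 q of 0.0275. Replicate 2 had a summit of 10.5 (rank 14649) at 260 bp upstream. Replicate 1 had none in the window, and its nearest summit lay 632 bp inside the gene. The strongest among the HORMA genes was that of htp-2 (IV, 6419522 to 6420898, plus strand, WBGene00002033). It had a score of 43.2 and rank 3071 in the pooled list, 153 bp upstream at IV:6419369, with a −log10 q of 2.83. Both replicates had this summit, with 27 (rank 2505) at 145 bp upstream in replicate 1 and 19.5 (rank 4250) at 104 bp upstream in replicate 2.

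LAB-1 is the member that was bound. Its gene lies on chromosome I at 9657012 to 9658023 on the minus strand (WBGene00007278). The summit had a score of 99.1, rank 1187 of the 1841 IDR peaks and of the pooled list, 71 bp upstream at I:9658094. Its −log10 q of 3.78 is the highest in the pooled list, a value that the IDR peaks past htp-1 and htp-2 share. The score at lab-1 was 30.8 (rank 2103, 106 bp upstream) in replicate 1 and 66.1 (rank 910, 48 bp upstream) in replicate 2. The peak overlapped one of the top 1841 peaks of replicate 2 and none of the top 1841 of replicate 1, so with replicate 1 alone no member was called. Of the 1841 IDR peaks, 164 (8.91%) were overlapped by top peaks of replicate 2 and not of replicate 1, 147 (7.98%) by those of replicate 1 alone and 1514 (82.2%) by both.

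**Figure D1:**
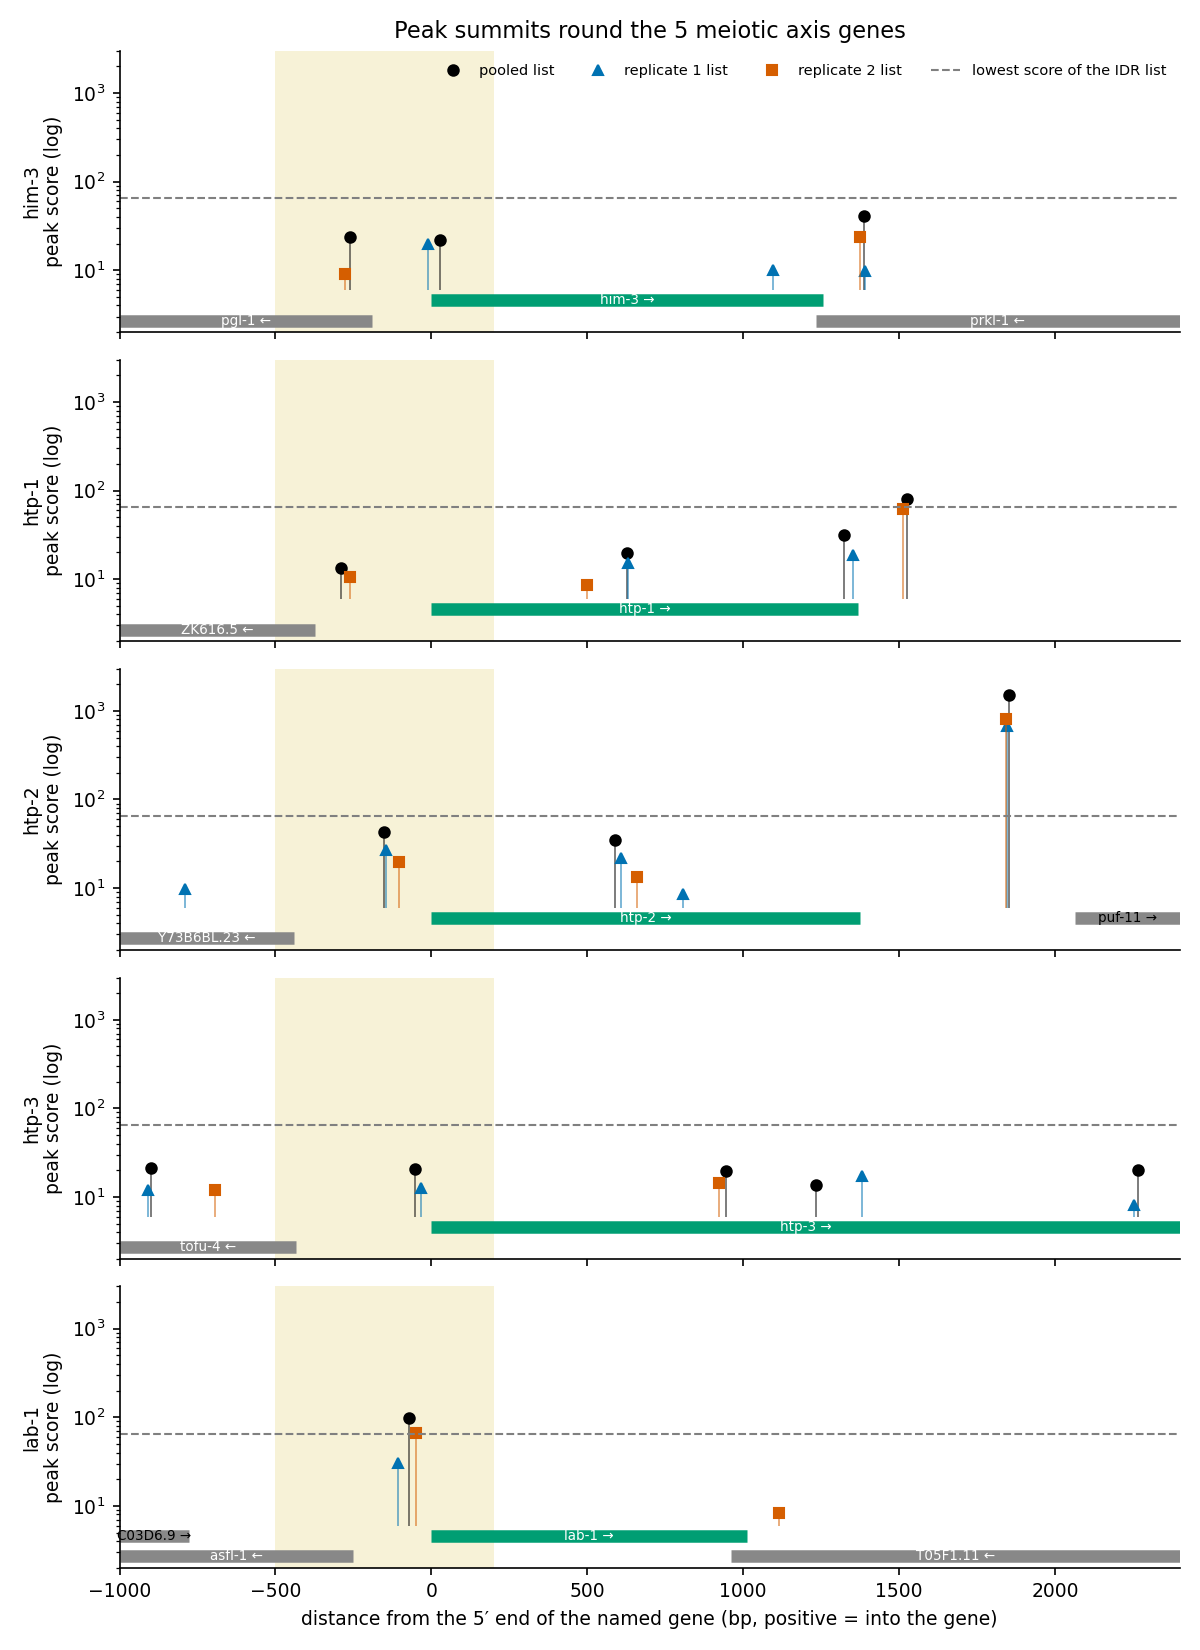
Peak summits by distance from the 5′ end of each gene (bp, 5′ to 3′ along the gene), with peak score on a log axis, for the pooled list (circles) and the lists of replicates 1 (triangles) and 2 (squares). Bars are annotated genes, with arrows for their direction, the shaded band is the promoter window and the dashed line is the lowest score of the IDR list, 65.6; within the windows only lab-1 has a pooled summit above it, at 99.1, and the summit of 1495 near htp-2 lies just upstream of puf-11.

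Ordered by their strongest pooled promoter summit, the genes ran lab-1 (99.1), htp-2 (43.2), him-3 (23.5), htp-3 (20.7) and htp-1 (13.4). Among all 19973 genes they ranked 925, 1897, 3172, 3576 and 5373. In replicate 1 the order was lab-1, htp-2, him-3 and htp-3, with htp-1 at no summit. In replicate 2 it was lab-1, htp-2, htp-1 and him-3, with htp-3 at no summit. The places of lab-1 and htp-2 were the same in both replicates, while him-3, htp-1 and htp-3 changed places, so these 3 were not ordered beyond the spread between replicates. The median over the 5 genes was 23.5, and it was 27.6 over the 5525 genes with a pooled promoter summit.

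**Figure D2:**
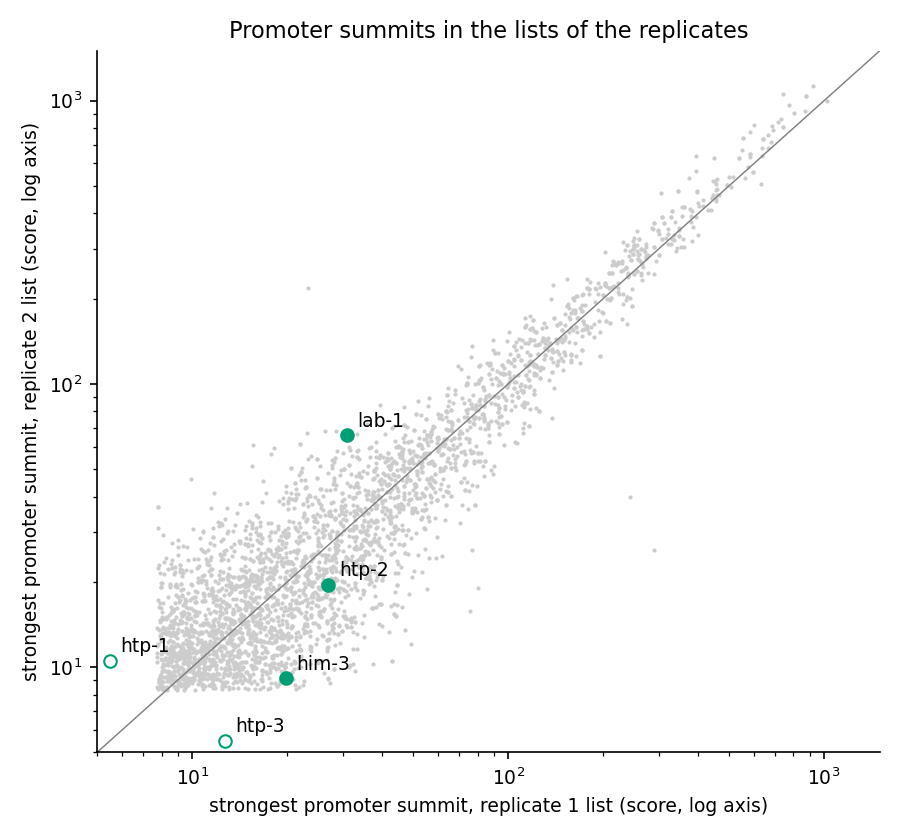
Score of the strongest promoter summit per gene in the list of replicate 1 (x, log axis) and replicate 2 (y, log axis); grey points are all genes with a summit in both lists, filled circles are members and open circles on the edge are members with no summit in 1 list. The 2 axes are scores of separate lists and the line marks equal scores; lab-1 lies at 30.8 and 66.1, htp-2 at 27 and 19.5, and htp-1 and htp-3 each lack a summit in 1 replicate.

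Each of the 5 genes faces an opposite-strand gene across a short upstream region, and in each the strongest pooled summit lay in the windows of both genes. The facing 5′ ends were 190 bp apart for him-3 and pgl-1, a P granule gene, 251 bp for lab-1 and asfl-1, which encodes a homolog of the histone chaperone ASF1, and 372 bp for htp-1 and ZK616.5. They were 433 bp apart for htp-3 and tofu-4, a gene of the piRNA pathway, and 441 bp for htp-2 and Y73B6BL.23. Of all genes, 1959 (9.81%) had such a neighbour within 500 bp upstream. Among those 1959, 349 (17.8%) were bound, against 985 of 18014 genes without one (5.47%). A summit between such facing 5′ ends lies in both windows by construction, and it counts for both genes in these shares. This comparison of shares was chosen after the loci had been seen. The peak lists give no way to assign a shared summit to one of the 2 genes: that of lab-1 lay 180 bp upstream of asfl-1 and 71 bp upstream of lab-1, and that of him-3 lay 2 bp inside an annotated 5′ end of pgl-1.

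Peaks of the IDR list did occur near htp-1 and htp-2, past their 3′ ends. A peak of the IDR list lay between htp-2 and puf-11, which encodes an RNA-binding protein of the PUF family, with its summit at IV:6421374, 476 bp past the 3′ end of htp-2 and 211 bp upstream of puf-11. Its score was 1495, rank 16 of 1841, and both replicates had it, with 682 (rank 17) in replicate 1 and 811 (rank 16) in replicate 2. It is in the promoter window of puf-11 and not in that of htp-2. A second IDR peak lay 156 bp past the 3′ end of htp-1, at IV:5390033, in intergenic sequence before elo-6, a fatty acid elongase gene that starts further on. Its score was 80.6 (rank 1487) in the IDR list, below the median of that list, 128. In replicate 2 the summit had a score of 61.8 (rank 974), and in replicate 1 the nearest summit, at IV:5390205 in the untranslated region of htp-1, had 18.5 (rank 4424). Like the peak at lab-1, this one was overlapped by a top peak of replicate 2 and not of replicate 1.

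The 101 bp round the summits of these peaks differed in the words they held. The puf-11 peak held GAGACC and, on the reverse strand, GGCGCA, with 25 bp between the first base of GAGACC and that of TGCGCC, the same distance as in him-3. The peak past htp-1 held none of the 4 words.
Peak between htp-2 and puf-11, plus strand, chrIV:6421324-6421424: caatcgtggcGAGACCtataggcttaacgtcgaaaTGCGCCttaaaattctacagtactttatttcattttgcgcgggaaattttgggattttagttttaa
Peak past the 3′ end of htp-1, minus strand, chrIV:5389983-5390083: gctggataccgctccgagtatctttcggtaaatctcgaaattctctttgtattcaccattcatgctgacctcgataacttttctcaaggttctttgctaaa

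Reads from paralogs can match more than 1 place. Of the 31-base words in the promoter window, 99.1% occurred once in the genome for htp-1 and 93.3% for htp-2, and all did for him-3, htp-3 and lab-1. Over the genes themselves 96% occurred once for htp-1 and for htp-2. How reads with several matches were treated is not given in the sources used here, and the part of repeated sequence in the scores was not tested.

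Many other genes of the axis and its regulators were bound, and these counts carry no test. Several bound partner genes have an opposite-strand 5′ end within 500 bp upstream. Among them are coh-3, coh-4, wapl-1, syp-2, syp-6, mdf-2, csc-1 and icp-1. Their peaks may thus also lie in the window of the facing gene. In the 4 lists of partner genes 18 of 27 were bound (66.7%), against the 6.68% of all genes. Among all genes with an opposite-strand 5′ end within 500 bp upstream the share was 17.8%. The lists were chosen with earlier results of these data known, so this contrast is only a description. The count was 11 of 27 when the window was narrowed to 200 bp before and 100 bp after the 5′ end, and 13 of 27 with the stronger 921 IDR peaks. The strongest pooled promoter summit had a median of 104 over the 27. Cohesin subunits and the cohesin release factor had 6 of 7 bound: coh-4 (1549), coh-3 (1369) and rec-8 (664) encode meiotic kleisins, and wapl-1 (248) the release factor. The unbound member was him-1, the SMC1 subunit, at 47.3. The coh-4 peak had 742 in replicate 1 and 809 in replicate 2, and the rec-8 peak 289 and 369. The central region of the synaptonemal complex, which joins the axes of homologs, had 5 of 7 bound: syp-5 (820), syp-6 (563), syp-2 (492) and syp-4 (167) led, and syp-1 and skr-1 had no summit in any list's window. The narrower window left 2 of the 7 bound.

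In the list of HORMA remodelling and axis kinase genes, which also holds the gene of a spindle checkpoint HORMA protein, 4 of 5 were bound. The checkpoint kinase gene chk-2 had a score of 531, and mdf-2, which encodes that checkpoint protein, had 134. The Polo kinase gene plk-2 had 129, with its summit just inside the upstream edge of the window. The gene of PCH-2, the ATPase that remodels HORMA domains, had 75.2. The unbound member was cmt-1, the PCH-2 cofactor, at 34.3. In the list of PP1 and the AIR-2 pathway that LAB-1 restrains, 3 of 8 were bound: the shugoshin gene sgo-1 (1424) and the chromosomal passenger genes csc-1 (633) and icp-1 (104). The kinase gene air-2 (43.4), bir-1 (39.6), the haspin kinase gene hasp-1 (43.9) and the phosphatase gene gsp-2 (50.4) had pooled summits below the IDR list, and the phosphatase gene gsp-1 had none. With 2 times as many peaks of the pooled list, 7 of the 8 were bound, and gsp-1 was the exception. The scores of air-2, hasp-1 and bir-1 lie close to that of htp-2.

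**Figure D3:**
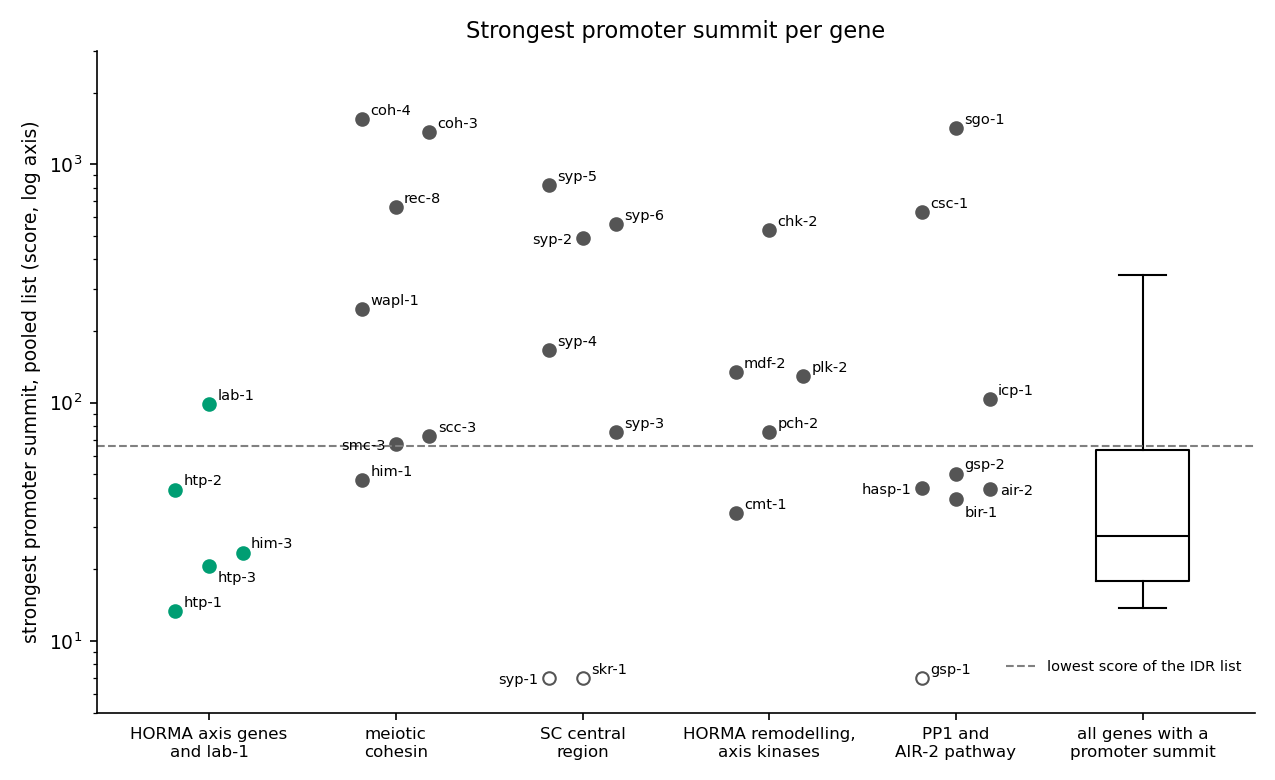
Score of the strongest promoter summit of each gene in the pooled list (log axis), for the members (left), the 4 lists of partner genes and, at the right, all 5525 genes with a pooled promoter summit as a box (median 27.6, quartiles, whiskers at the 5th and 95th percentiles). Open circles are genes with no summit, drawn below the scale, and the dashed line is the lowest score of the IDR list, 65.6; among the members lab-1 alone lies above it, and 18 of the 27 partner genes do.

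The protein-coding genes whose promoter summits were most like that of lab-1 in all 3 lists were F27D4.4 and F27D4.7, at a Euclidean distance of 0.083 over log2 scores among 3380 genes compared. They share 1 summit, with scores of 104 in the pooled list, 31.8 in replicate 1 and 67.3 in replicate 2, against 99.1, 30.8 and 66.1 at lab-1. The 3 lists come from only 2 samples.

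The promoter windows of the HORMA genes held 2 or 3 of the 4 words each, while their summits were low. Within 50 bp of IDR summits GGCGCA was present at 20.7%, GAGACC at 21%, ACCGTA at 19% and CCTTTA at 19.8% of peaks, against 2.8%, 3.75%, 2.96% and 4.26% in flanks 300 bp away. The words were chosen for this excess, so it is no finding. They were held by 38.8%, 41.2%, 40.3% and 43% of the windows of bound genes, and by 14.7%, 20.1%, 21.6% and 25.9% of all promoter windows. At least 3 of the 4 words were found in the windows of him-3, htp-2 and htp-3, against 1189 of all genes (5.95%). At least 2 were found in all 4 HORMA genes, against 3885 of all genes (19.5%). Of these, htp-1 and htp-2 are close paralogs, and 2 of the words in him-3 share bases. The window of htp-1 held 2 words and that of lab-1 held 1, ACCGTA, 91 bp upstream, whereas the median gene had 1. The bound gene thus had the fewest words among the 5. Windows were 31.4% to 35.2% GC in the 5 genes, and the median over all genes was 35.1%.

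All 4 HORMA genes held the word pair and lab-1 did not. The first bases of the words lay 29 bp apart in him-3, 30 bp in htp-1 and htp-2, and 26 bp in htp-3, where the pair is on the strand opposite to the gene, 178 to 147 bp upstream. The pair is in 286 of 19973 promoter windows (1.43%), and in 154 of the 1334 bound ones (11.5%). In the genome there were 734 such pairs at 25 to 30 bp and 48 at 31 to 36 bp. Most of the 734 lay at 26 bp (356) and 29 bp (186), with 53 at 30 bp. Outside both ranges, 49 pairs lay at 38 bp. The pair was picked after it had been seen in these windows, and its range was set with their spacings known. Its presence in all 4 and the contrast of these ranges are thus descriptions and support nothing. Among partner genes the pair was in the windows of 4 bound genes, syp-3, syp-5, chk-2 and sgo-1, and in none of the 7 cohesin genes.

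Genes with the pair varied widely in their summits. The words of the pair were chosen for their excess at IDR summits, so a high share of bound genes among its carriers follows from that choice and is given only as a description. Of the 286 carriers, 154 were bound (53.8%), their median pooled score was 87.8 with genes lacking a summit set to 0, and 191 had a pooled summit higher than that of htp-2, the highest of the 4. The HORMA genes were among the 132 carriers that were not bound. The strongest pooled promoter summits of the HORMA genes lay outside the pair. The distance was 8 bp in htp-1, 43 bp in htp-2, 46 bp in him-3 and 96 bp in htp-3. The summit of htp-1 had a −log10 q of only 0.0275. The second pooled summit of him-3, of 21.9, lay 29 bp downstream of the 5′ end, further from the pair. Whether such distances are short for summits in these windows was not tested. In the lists of the replicates, 2 of the 6 strongest promoter summits of the HORMA genes lay inside the pair, those of htp-1 and htp-2 in replicate 2. The other 4 lay outside it, by 35 bp in htp-2, 113 bp in htp-3 and 171 bp in him-3 in replicate 1, and by 63 bp in him-3 in replicate 2. A match to the words is a sequence match, and binding of XND-1 or another factor to it was not measured.

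**Figure D4:**
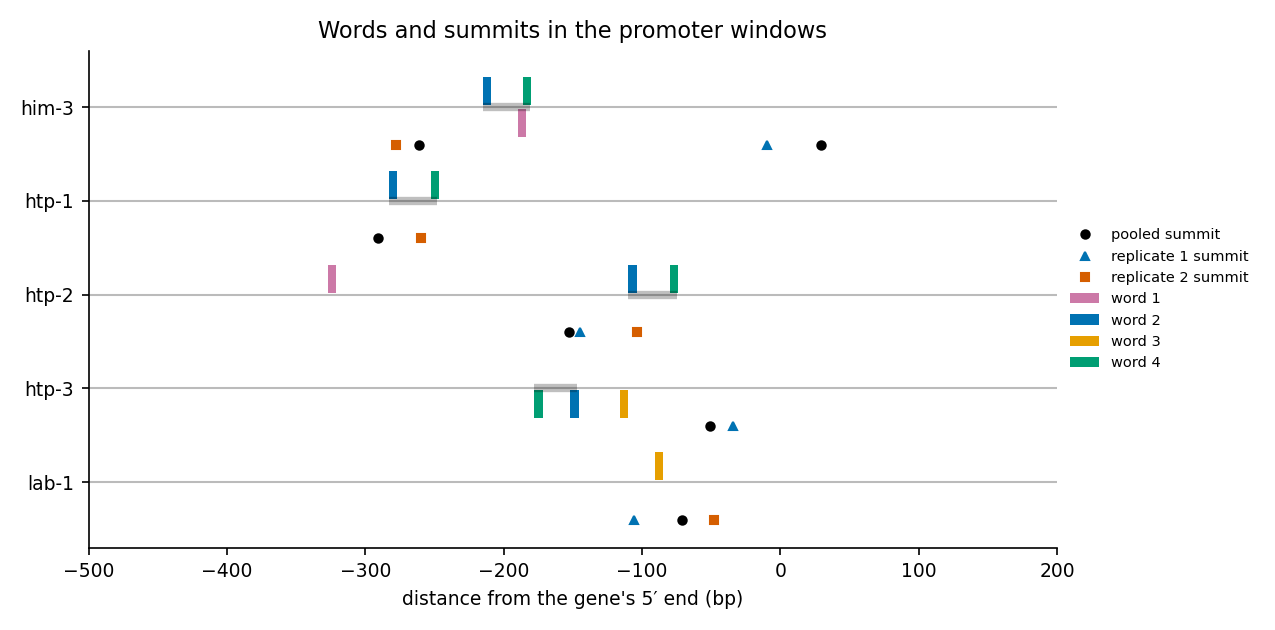
Positions of the 4 words in the promoter windows by distance from the 5′ end (bp), for the 5 genes, with words above the line on the strand of the gene and below it on the other strand. Word 1 is GGCGCA, word 2 GAGACC, word 3 ACCGTA and word 4 CCTTTA; grey bars are the word pair and the symbols under each line are peak summits, and the pair is seen in the 4 HORMA genes and not in lab-1.

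**Figure D5:**
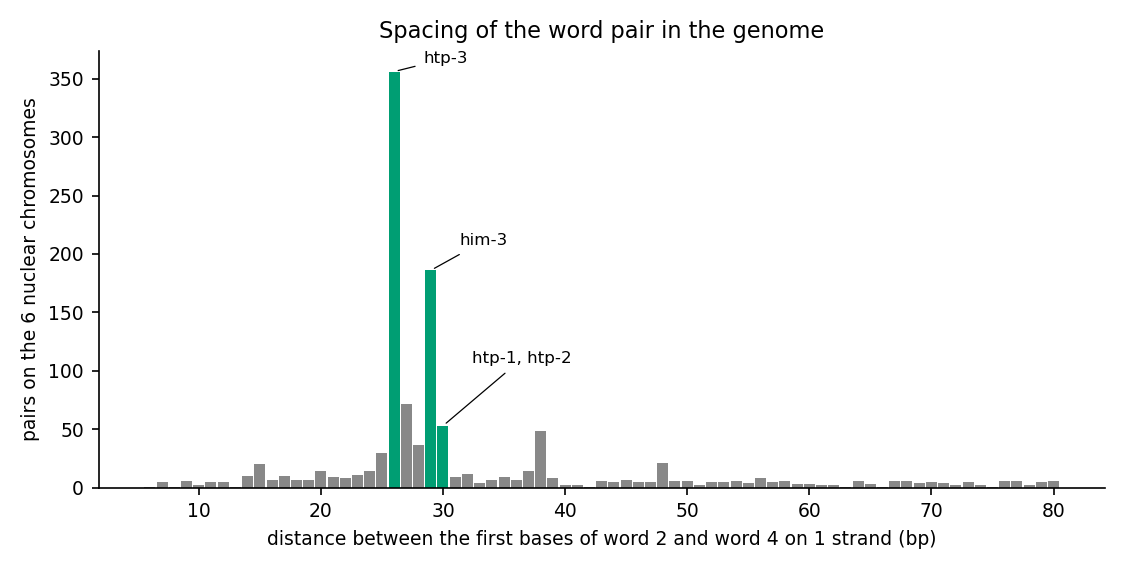
Number of places in the 6 nuclear chromosomes (y) where word 4 follows word 2 on the same strand at a given distance between their first bases (x, bp). Green bars are the spacings found in the HORMA genes, 26, 29 and 30 bp. The spacings of 25 to 30 bp, a range set with these known, hold 734 pairs, against 48 at 31 to 36 bp.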

How the data were processed

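XND-1 ChIP-seq was measured in 2 biological replicates of whole young adult worms. Peaks were called on each replicate and on both pooled, with a control alignment, and filtered by IDR, per the deposited file descriptions. The aligner, caller, IDR cut-off and kind of control are not given in the sources used here. Each peak has a score (signalValue), a −log10 q value and a summit offset, as deposited by the authors. Scores were used only within a list. The WBcel235 (ce11) lists were used with Ensembl annotation release 115 and the RefSeq genome, and every peak lies within its chromosomes. Lists on ce10 were not used.

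Summits were assigned to promoter windows in Python 3.11.15 with numpy 2.4.6, pandas 2.3.3, scipy 1.17.1, biopython 1.88 and matplotlib 3.10.9, and the assignment was tested on simulated summits. One summit could count for several genes. With 1 group there is no test between conditions. The members and gene lists were chosen with earlier results of these data known. Named genes were the members, genes that share their summits or lie next to them, up to 4 bound genes per partner list by score, and the 2 genes most like each bound member; unbound partner genes and partner genes with the word pair were named after their values had been seen. The words were taken as the 4 with the largest excess in summit windows over flanks that share no 4 bases, a rule written after words at summits had been viewed. The facing genes, the word pair and the 31-base words were chosen after the data were seen.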

Additional observations from a re-analysis of the deposited data

How the results depend on the processing

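Of 30 values of the main results under 8 alternatives, 23 stayed within 1.5 times the reported count, or within 1 SD of the replicates, and 7 did not. The bound genes numbered 658 when the window was narrowed to 200 bp before and 100 bp after the 5′ end, where 11 of 27 partner genes were bound, 739 with the stronger 921 peaks of the IDR list and 2116 with 2 times as many peaks of the pooled list. The members bound numbered 0 with the stronger 921 peaks and 2 with 2 times as many pooled peaks, where htp-2 joined lab-1. The remaining windows and overlap rules gave lab-1 alone.

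With 1 replicate's top 1841 peaks in place of the IDR list, the members bound ran from 0 (without replicate 2) to 1 (without replicate 1), all bound genes from 1272 to 1333 and partner genes from 16 to 17. The median rank of the members' strongest summits was 33.6% of the pooled list. It ran from 17.3% to 65.5% in the replicates' own lists, with the member that lacked a summit placed last. The SD between replicates is of that same order, so this rank is poorly determined.

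Other spacings of the word pair were added after the data were seen. They gave 285 genes at 26 to 30 bp and 308 at 20 to 40 bp (50.6% bound). With both words on 1 strand at any distance there were 877 genes (26.5% bound). The 4 HORMA genes were in each, but every setting includes their spacings, so this was fixed in advance. No paired analysis was possible because the series has 1 group and no test between groups. Depth is unknown, so a summit absent from a list was not detectable there rather than shown to be missing.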
